A study of Mus musculus with 6 samples.

Results

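T cell receptor variable segments are the gene pieces, named Trav for the alpha chain and Trbv for the beta chain, that encode most of the antigen-binding part of each receptor chain. The segments described here are those whose symbols start with Trav or Trbv and whose expected counts reach at least 30 when summed over 6 libraries. This left 88 segments, 68 Trav and 20 Trbv, of 163 annotated ones, 128 Trav and 35 Trbv, and of 46517 gene identifiers in all. The segments were chosen by their summed counts, without regard to group, so their abundance is a description and carries no test. The 88 segments held 93.2% of the Trav counts and 99.7% of the Trbv counts. Of the 75 segments under the limit, 26 were listed at 0 in every library. The annotation calls 33 of the 163 segments pseudogenes, and 0 of these were among the 88.

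The libraries came from CD8 T cells of C57BL/6J mice, 3 given IL-3 supernatant and 3 given PBS supernatant. Naive T cells from spleen and lymph nodes were stimulated for 3 days on plates coated with antibody to CD3 at 5 µg/mL, with antibody to CD28 at 0.5 µg/mL and IL-2 at 100 units/mL, and received basophil supernatant from day 1 to day 2. The basophils, a rare kind of granulocyte, had been sorted and kept for 2 days in medium with IL-2 at the same concentration; IL-3 (3 ng/mL) was added for the first group and PBS for the second, and the labels mention no step that removes the cytokine. Whether replicates are separate mice or cultures is not stated, and the p-values therefore reflect library-to-library spread, which may be technical.

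Each developing T cell joins 1 alpha variable segment to a joining segment, and 1 beta variable segment to a diversity and a joining segment, and the joined exon is spliced to a constant region, Trac for the alpha chain and Trbc1 or Trbc2 for the beta chain. The segments a cell uses are then fixed, and in a polyclonal population the level of a segment sums over the many clones that carry it. The Trav segments lie on chromosome 14 (GRCm38) between positions 52427928 and 53977678, all 128 on the plus strand. The Trbv segments lie on chromosome 6 between positions 40891229 and 41558452, with 34 on the plus strand. Trbv31, at 41557691 to 41558452, is the 1 segment on the minus strand.

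A variable segment ends shortly after a conserved cysteine, where the third complementarity-determining region begins. The last 48 coding bases of abundant segments are shown because they separate the 2 families: the beta segments differ from each other, and the copies of an alpha segment hardly do. Sequences are those of GENCODE M21 transcripts (GRCm38), 5′ to 3′, and capitals mark the cysteine codon.
Trbv29, chr6:41271394-41271881, plus strand: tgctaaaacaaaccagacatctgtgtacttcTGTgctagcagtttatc
Trbv3, chr6:41048290-41048828, plus strand: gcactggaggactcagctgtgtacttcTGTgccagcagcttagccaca
Trbv13-1, chr6:41116007-41116468, plus strand: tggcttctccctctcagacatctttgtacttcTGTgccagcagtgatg
Trbv13-2, chr6:41121396-41121832, plus strand: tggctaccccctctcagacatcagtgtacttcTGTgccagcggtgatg
Trbv19, chr6:41178375-41179048, plus strand: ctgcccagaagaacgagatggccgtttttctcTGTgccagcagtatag
Trav16n, chr14:53351028-53351621, plus strand: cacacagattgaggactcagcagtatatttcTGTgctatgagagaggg
Trav16, chr14:53743104-53743705, plus strand: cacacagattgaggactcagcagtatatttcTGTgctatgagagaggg
Trav3-3, chr14:53665929-53666506, plus strand: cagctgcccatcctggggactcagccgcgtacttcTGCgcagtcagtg
Trav3d-3, chr14:52972448-52973038, plus strand: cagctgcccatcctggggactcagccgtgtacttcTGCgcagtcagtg
Trav3n-3, chr14:53283585-53284175, plus strand: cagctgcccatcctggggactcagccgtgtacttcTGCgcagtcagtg
The ends of Trav16n and Trav16 are letter for letter the same, as are those of Trav3d-3 and Trav3n-3. In the annotation, the alpha locus of this strain holds several near-copies of a segment, marked d and n beside the plain name.

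The copies matter for every value of a single alpha segment. By global alignment of coding sequences, the nearest other segment was identical over a median of 97.3% of positions for the 68 Trav segments and over a median of 62.9% for the 20 Trbv segments. An exact coding copy existed for 14 Trav segments and for 0 Trbv segments, and a copy at 97% identity or more for 38 Trav segments and for 0 Trbv segments. Expected counts divide a read among the segments it fits, and 42 of 68 Trav segments held fractions of counts, against 2 of 20 Trbv segments. Segments with identical transcripts formed 7 pairs, such as Trav14d-1 with Trav14n-1 and Trav3d-3 with Trav3n-3, and the 2 members of each pair held equal counts in every library. Such a pair is 1 set of reads, and its 2 entries do not support each other. The counts of segments given below include both entries of each pair.

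Both families were lower with IL-3 supernatant. Levels are given as CPM, counts set relative to the library's total after TMM scaling, which aligns the bulk of genes between libraries, and a call is an edgeR quasi-likelihood test over all genes with a Benjamini-Hochberg adjusted p under 0.05. Summed over all 128 segments, Trav came to 65.6, 58.6 and 63.6 CPM in the IL-3 libraries, against 87.5, 84.9 and 96.5 CPM in the PBS libraries. Every IL-3 library lay below every PBS library, and the level fell to 0.698-fold (95% interval 0.631 to 0.771, log2 change -0.52, SE 0.07, edgeR adjusted p = 1.58e-05). Summed over all 35 segments, Trbv came to 108.3, 118.3 and 115.7 CPM in the IL-3 libraries, against 157, 156.4 and 162.2 CPM in the PBS libraries. These groups did not overlap either, and the level fell to 0.720-fold (95% interval 0.663 to 0.782, log2 change -0.47, SE 0.06, edgeR adjusted p = 5.18e-06). In the same fit 16.3% of 12338 genes or sums were called lower, and in bulk RNA fewer cells with a transcript and less of it per cell cannot be told apart.

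**Figure D1:**
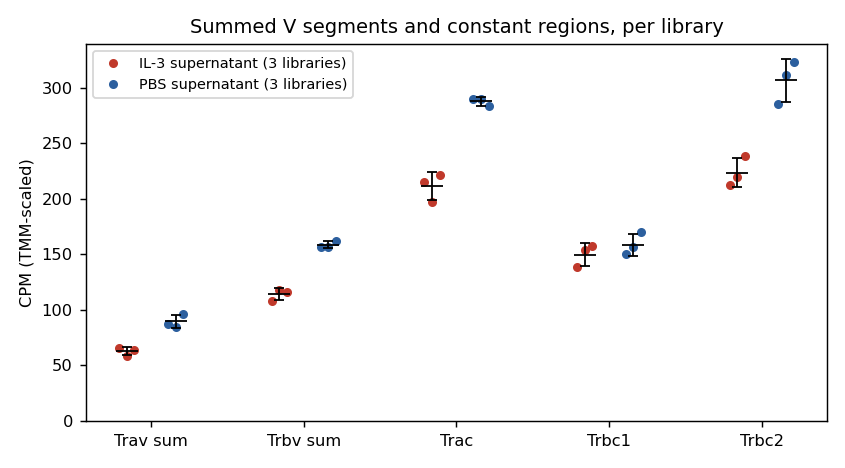
CPM (vertical axis, TMM-scaled) of the summed Trav and Trbv segments and of the constant regions Trac, Trbc1 and Trbc2 (horizontal axis) in 3 IL-3 and 3 PBS supernatant libraries, with the mean and SD in black. The groups lie apart for the Trav sum, the Trbv sum, Trac and Trbc2, and overlap for Trbc1.

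The constant regions to which the segments are spliced did not move as 1 group. Trac, the alpha constant region, averaged 211.4 ± 12.7 CPM with IL-3 supernatant and 287.7 ± 3.64 CPM with PBS supernatant (SD, n = 3 each; log2 change -0.44, edgeR adjusted p = 8.09e-06). Trbc2 averaged 223.6 ± 13.4 CPM with IL-3 supernatant and 306.8 ± 19.3 CPM with PBS supernatant (log2 change -0.46, edgeR adjusted p = 1.69e-05). Trbc1 averaged 149.8 ± 10.0 CPM with IL-3 supernatant and 158.7 ± 10.1 CPM with PBS supernatant, and did not pass (0.944-fold, 95% interval 0.860 to 1.037, edgeR adjusted p = 0.369). The 2 beta constant regions are near-copies of each other, so reads can be divided between them.

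Set against their constant regions, the alpha segments differed between groups by less than the spread of the libraries. There were 30.5, 29.7 and 28.7 Trav counts per 100 Trac counts in the IL-3 libraries and 30.2, 29.3 and 34.0 in the PBS libraries (two-sided exact permutation p = 0.5). For the beta chain there were 30.9, 31.6 and 29.2 Trbv counts per 100 counts of Trbc1 and Trbc2 together in the IL-3 libraries, against 36.1, 33.4 and 32.9 in the PBS libraries. These groups did not overlap, and the exact permutation p of 0.1 is the smallest that 3 against 3 libraries can give. Per 100 counts of Trbc2 alone, Trbv came to 51.1 ± 2.61 with IL-3 supernatant and 51.8 ± 2.77 with PBS supernatant (SD, n = 3 each; exact permutation p = 0.7). Trbc1 made up 39.5%, 41.1% and 39.7% of the beta constant counts in the IL-3 libraries and 34.4%, 33.4% and 34.4% in the PBS libraries (exact permutation p = 0.1). Per length, in TPM, transcript abundance scaled for length, the Trav sum averaged 308 ± 16.8 beside 443 ± 29.2 for Trac with IL-3 supernatant, and 432.5 ± 39.0 beside 592 ± 20.2 with PBS supernatant. The 74 annotated joining segments, 60 Traj and 14 Trbj, were listed at 0 in all 6 libraries.

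Single beta segments are the best measured. All 19 tested Trbv segments had a negative log2 change, and 11 of them fell, 0 rose and 8 did not pass; over all 12407 genes tested, 16.1% were called lower and 14.8% higher. Trbv29, the segment with the most beta counts, had 13.4, 14.5 and 14.1 CPM in the IL-3 libraries, against 16.7, 17.8 and 19.2 CPM in the PBS libraries (log2 change -0.35, SE 0.11, edgeR adjusted p = 0.0188). Trbv3 had 13.1, 15.7 and 11.6 CPM in the IL-3 libraries, against 17.3, 17.4 and 17.4 CPM in the PBS libraries (log2 change -0.36, SE 0.12, edgeR adjusted p = 0.0311). For both, the highest IL-3 library lay below the lowest PBS library.

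The 3 Trbv13 segments, which are near relatives close together on the chromosome, all fell. Trbv13-2 had 5.51, 7.07 and 6.84 CPM in the IL-3 libraries, against 10.3, 10.6 and 10.7 CPM in the PBS libraries. It had the smallest adjusted p of any variable segment (log2 change -0.70, SE 0.15, edgeR adjusted p = 0.00148). Trbv13-1 averaged 9.31 ± 0.630 CPM with IL-3 supernatant and 13.3 ± 0.954 CPM with PBS supernatant (log2 change -0.51, edgeR adjusted p = 0.00496). Trbv13-3 was less steady, with 3.91, 4.28 and 6.53 CPM in the IL-3 libraries against 8.29, 5.87 and 7.81 CPM in the PBS libraries, so the groups overlapped (log2 change -0.58, edgeR adjusted p = 0.0473). The coding sequences of Trbv13-2 and Trbv13-3 are 90.6% identical, and 32 positions differ. Coding positions 262 to 321 are shown with the differences in capitals to show how far these neighbours can be told apart.
Trbv13-2, chr6:41121396-41121832, plus strand: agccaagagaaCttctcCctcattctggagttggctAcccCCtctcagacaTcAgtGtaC
Trbv13-3, chr6:41130147-41130585, plus strand: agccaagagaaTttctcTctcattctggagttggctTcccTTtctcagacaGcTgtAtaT

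The other beta segments that fell were Trbv19, Trbv12-1, Trbv14, Trbv16, Trbv31 and Trbv4. Trbv12-1 had 6.23, 6.12 and 6.13 CPM in the IL-3 libraries, against 8.40, 10.9 and 10.1 CPM in the PBS libraries (log2 change -0.67, edgeR adjusted p = 0.00257). Trbv4 had the most negative beta log2 change, with 2.57, 4.80 and 2.49 CPM in the IL-3 libraries against 7.86, 4.78 and 5.61 CPM in the PBS libraries (log2 change -0.87, edgeR adjusted p = 0.0263). Its second IL-3 library and its second PBS library lay at nearly the same level, so these groups overlapped. Trbv12-2, which shares 88.2% of coding positions with Trbv12-1, averaged 7.79 ± 0.973 CPM with IL-3 supernatant and 9.47 ± 0.479 CPM with PBS supernatant and did not pass (log2 change -0.28, edgeR adjusted p = 0.167). Trbv1, the first beta segment on the chromosome, did not pass either (log2 change -0.30, edgeR adjusted p = 0.179), and Trbv15 came close (log2 change -0.48, edgeR adjusted p = 0.0510). The 11 segments that fell held between 531 and 1816 counts over the 6 libraries, and the 8 that did not pass held between 131 and 986.

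**Figure D2:**
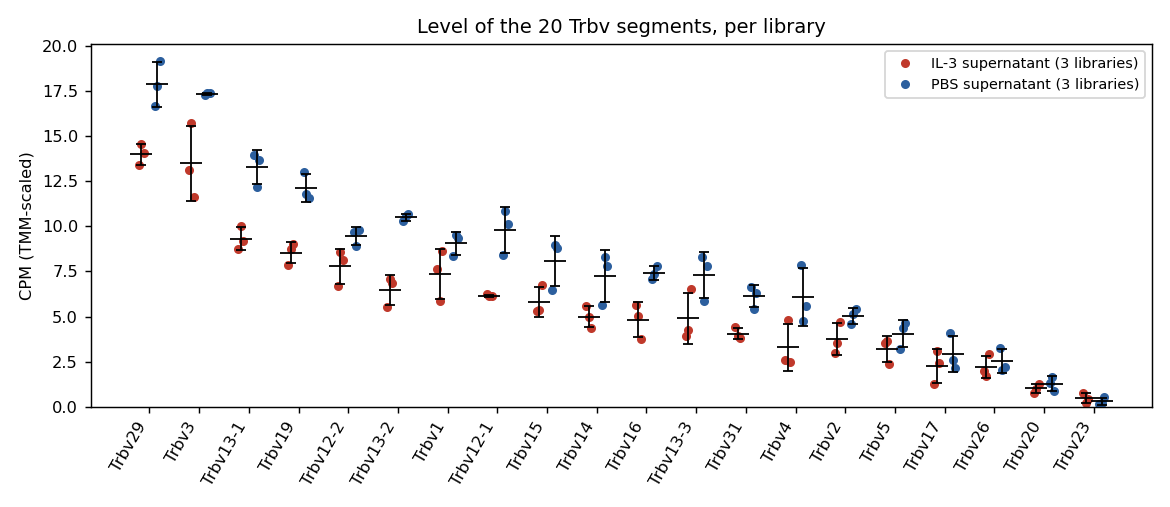
CPM (vertical axis, TMM-scaled) of each of the 20 Trbv segments (horizontal axis, ordered by summed counts) in 3 IL-3 and 3 PBS supernatant libraries, with the mean and SD in black. The IL-3 mean lies below the PBS mean for every segment except Trbv23, the rarest, with 44 counts in all.

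Among alpha segments, 52 of 68 passed the filter on low counts, and 7 fell, 0 rose and 45 did not pass, beside the same 16.1% of genes called lower. Their log2 changes ran between -1.52 and 0.56 with a median of -0.55, where the median of all genes was -0.0047. Of the tested segments, 1, Trav8-1, passed the filter through the PBS libraries without any IL-3 library reaching the filter's level of 0.526 CPM. It could be tested only because of the group in which it is high. Without it 17 segments of both families fell in place of 18. Trav10d and Trav14-1, also among the 7, reached that level in every PBS library but not in every IL-3 library. Of the 71 tested segments of both families, 47 reached it in all 6 libraries. Counting all 88 segments, 73 had a lower mean CPM with IL-3 supernatant and 15 a higher one. Groups did not overlap for 27 of the 71 tested segments of both families, 17 Trav and 10 Trbv. All 27 were lower with IL-3 supernatant, against 22.6% of all genes that were lower without overlap. The identical pair Trav14d-1 and Trav14n-1 is counted as 2 segments among the 7 that fell and among these 17. The 17 also hold both entries of the pairs Trav3d-3 with Trav3n-3 and Trav14d-2 with Trav14n-2.

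Trav16 had 1.72, 2.02 and 2.25 CPM in the IL-3 libraries, against 3.42, 3.55 and 4.13 CPM in the PBS libraries (log2 change -0.88, SE 0.27, edgeR adjusted p = 0.0191). Trav12-2 had 1.80, 1.89 and 1.58 CPM in the IL-3 libraries, against 2.28, 3.602 and 3.65 CPM in the PBS libraries (log2 change -0.85, SE 0.30, edgeR adjusted p = 0.0420). In both the groups lay apart. Trav14-1 had the most negative log2 change of all 71 tested segments, with 0.618, 0.675 and 0.357 CPM in the IL-3 libraries against 0.779, 1.61 and 2.40 CPM in the PBS libraries (log2 change -1.52, SE 0.49, edgeR adjusted p = 0.0257). Trav14d-1 and Trav14n-1, the identical pair, fell as well, each averaging 1.01 ± 0.185 CPM with IL-3 supernatant and 2.13 ± 0.121 CPM with PBS supernatant (edgeR adjusted p = 0.0379). Trav10d fell as well (log2 change -1.26, edgeR adjusted p = 0.0418). Trav8-1, entered through the PBS libraries as described, had 0.515, 0.270 and 0.255 CPM in the IL-3 libraries against 1.33, 0.665 and 0.855 CPM in the PBS libraries.

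Trav16n, which held the most alpha counts and ranked first in the family also per length in TPM, did not pass. It had 3.12, 2.12 and 2.81 CPM in the IL-3 libraries, against 4.98, 1.54 and 4.35 CPM in the PBS libraries, and the second PBS library lay below every IL-3 library. The counts of Trav16, Trav16n and Trav16d-dv11 together were 99, 106 and 101 in the IL-3 libraries and 170, 106 and 153 in the PBS libraries. Scaled for library size, these sums were 5.097, 4.772 and 5.155 CPM in the IL-3 libraries. In the PBS libraries they were 9.463, 5.874 and 8.728 CPM, so the groups did not overlap. Trav6-6 and Trav6d-6, another identical pair, each averaged 1.66 ± 0.202 CPM with IL-3 supernatant and 1.75 ± 0.415 CPM with PBS supernatant (log2 change -0.09, edgeR adjusted p = 0.885). Trav3-3 (log2 change -0.46, edgeR adjusted p = 0.240) and Trav7-4 (log2 change -0.55, edgeR adjusted p = 0.246) did not pass. Neither did Trav6-7-dv9 (log2 change -0.70, edgeR adjusted p = 0.188). The pair Trav3d-3 and Trav3n-3 also did not pass (log2 change -0.68 each, edgeR adjusted p = 0.117). Of the 52 tested Trav segments 44 had a negative log2 change, and the others, which did not pass, included Trav4-4-dv10 at 0.45 and Trav1 at 0.47. Trav1 supplies the alpha chain of mucosal-associated invariant T cells, and Trav11 that of invariant natural killer T cells. Trav1 averaged 0.549 ± 0.203 CPM with IL-3 supernatant and 0.392 ± 0.201 CPM with PBS supernatant. Trav11 divides its reads with Trav11d, and the 2 together held 2, 4 and 4 counts in the IL-3 libraries and 5, 3 and 2 counts in the PBS libraries, which overlap.

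The counts of called segments moved with the libraries and the tool used. Without IL-3 replicate 1, 2 or 3 the number of segments that fell was 8, 11 or 7 in place of 18. Without PBS replicate 1, 2 or 3 it was 13, 12 or 4. These fits hold fewer samples, and fewer calls can come from that alone. The share of all genes called in them, or by the other tools below, is not given here. DESeq2 called 9 segments lower. Limma, run on 5 libraries without PBS replicate 2, called 23 on log2(TPM + 1) and 21 on log2(TPM + 0.1). At an unadjusted p under 0.05 edgeR had 23 of 71 segments in either direction, beside 39.9% of all genes.

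Near relatives, among which reads are divided, were also summed. Of 34 subgroups, such as all segments named Trav14, 16 fell and 0 rose, beside 16.3% of genes or sums called lower in that fit. Trav14 had 7.46, 6.80 and 5.51 CPM in the IL-3 libraries, against 10.8, 13.1 and 12.6 CPM in the PBS libraries (log2 change -0.88, SE 0.15, edgeR adjusted p = 0.000217). The summed Trbv13 segments averaged 20.7 ± 2.26 CPM with IL-3 supernatant and 31.1 ± 2.15 CPM with PBS supernatant (log2 change -0.59, SE 0.10, edgeR adjusted p = 0.000231). The other alpha subgroups that fell were Trav3, Trav8, Trav10, Trav12, Trav13 and Trav16. Trav6, the alpha subgroup with the most counts, had 12.6, 12.02 and 11.5 CPM in the IL-3 libraries, against 12.1, 13.8 and 15.4 CPM in the PBS libraries, and did not pass (log2 change -0.19, edgeR adjusted p = 0.268). Without IL-3 replicate 2 or 3 the number of subgroups that fell was 10 or 8, and without PBS replicate 3 it was 7. These fits, too, hold fewer samples.

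A segment can fall with its family or take a smaller part of it. To separate these, each segment was tested against the total of its own family. By edgeR 0 of 71 shares passed, beside 30.7% of all genes called in that fit, and 1 share had an unadjusted p under 0.05. That segment was Trav4-4-dv10, at 1.10%, 2.21% and 2.48% of Trav counts in the IL-3 libraries and 0.861%, 1.15% and 0.887% in the PBS libraries (log2 change 0.97, 95% interval 0.05 to 1.90, edgeR adjusted p = 0.108). Limma on log2 shares called 7, where 29.9% of all genes passed. Trav1, Trav4-4-dv10 and Trav7-3 rose, and Trav8-1, Trav10d and the pair Trav14d-1 and Trav14n-1 fell. Trav8-1 was again tested only through its PBS level. Trav10d reached the filter's level in every PBS library but not in every IL-3 library. Trav1, with 54 counts in all, reached it only in IL-3 replicates 1 and 3 and PBS replicate 2 (limma adjusted p = 0.0484). Leaving out IL-3 replicate 1 brought a call of Trav6-1, leaving out IL-3 replicate 2 a call of Trbv4, and leaving out PBS replicate 2 a call of Trav9-1. Trav6-1 and Trav9-1 were not tested with all 6 libraries. Trav6-1 had 0.675 and 0.562 CPM in IL-3 replicates 2 and 3 and at most 0.277 CPM in any PBS library. Trav9-1 had 0.606 and 1.425 CPM in PBS replicates 1 and 3 and at most 0.180 CPM in any IL-3 library. Each passed the filter in its fit only because of the group in which it is high, so these calls carry no support.

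**Figure D3:**
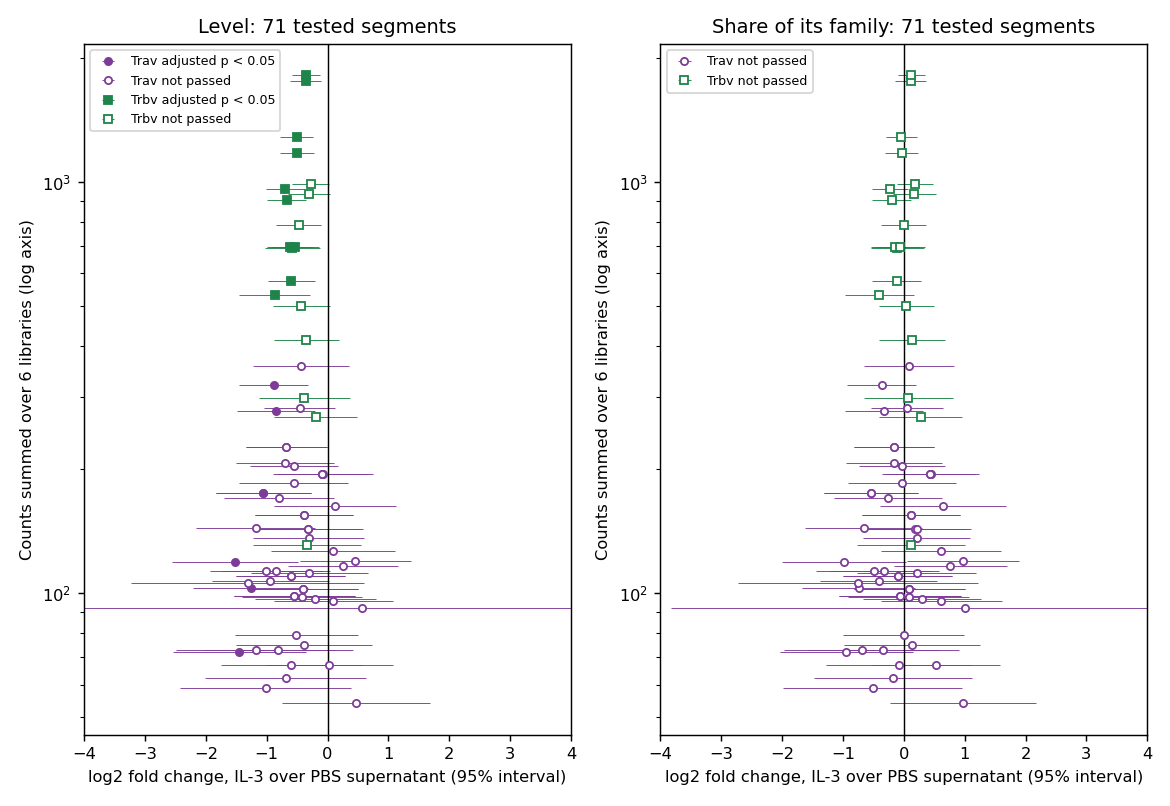
Log2 fold change with its 95% interval (horizontal axis, IL-3 over PBS supernatant) against counts summed over 6 libraries (vertical axis, log) for the 71 tested segments, as a level on the left and as a share of the family on the right; filled symbols passed an adjusted p of 0.05. On the left most points lie below 0 and 18 are filled; on the right the points lie on both sides of 0 and 0 are filled, and the interval of Trav12d-3 runs past the axis.

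The shares of abundant beta segments were measured closely enough to bound a change. Trbv29 made up 12.4%, 12.3% and 12.2% of Trbv counts in the IL-3 libraries and 10.6%, 11.4% and 11.8% in the PBS libraries. The groups did not overlap, yet the fitted log2 change was 0.12 with a 95% interval of -0.10 to 0.34. Trbv13-2 made up 5.09%, 5.97% and 5.91% in the IL-3 libraries and 6.56%, 6.77% and 6.58% in the PBS libraries (log2 change -0.23, 95% interval -0.53 to 0.07). Over the Trbv segments the log2 share changes ran between -0.41 and 0.28, with a median half-width of the 95% interval of 0.39. Over the Trav segments they ran between -0.98 and 1.00, with a median half-width of 0.92 in the edgeR fit, which leaves wide intervals for most single alpha segments. Limma, as given above, called some alpha share changes smaller than that. On subgroup sums, a fit added after seeing the data, 1 of 33 shares passed, beside 30.9% of genes or sums. Trav6 rose to 19.2%, 20.5% and 18.1% of Trav counts in the IL-3 libraries, against 13.9%, 16.2% and 16.0% in the PBS libraries (log2 change 0.33, SE 0.12, edgeR adjusted p = 0.0471). That call was lost whichever library was left out, with edgeR adjusted p between 0.0593 and 0.147 in fits of 5 libraries, while the log2 change stayed between 0.26 and 0.37.

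**Figure D4:**
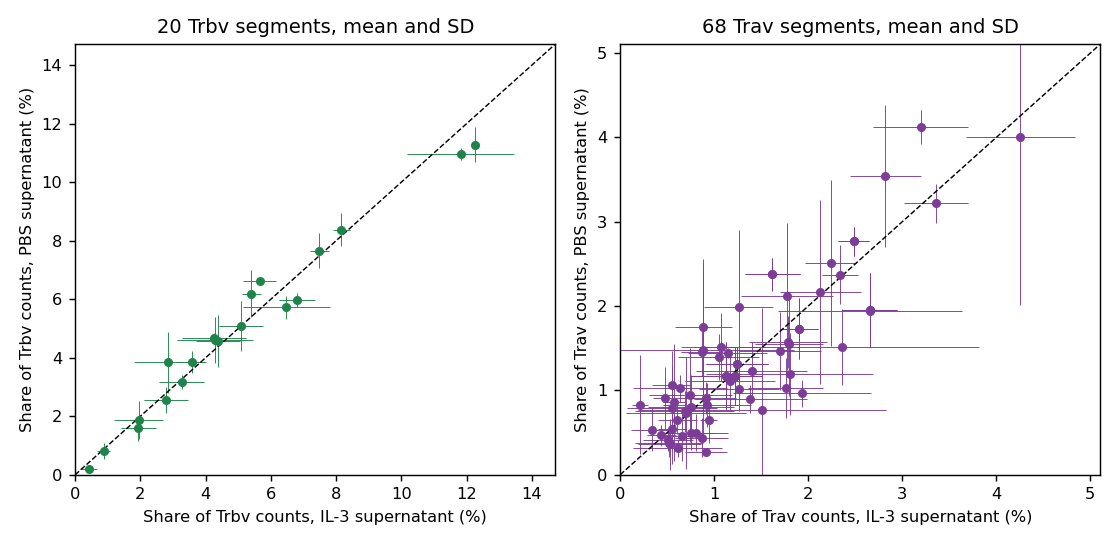
Mean share of the family's counts with IL-3 supernatant (horizontal axis, %) against PBS supernatant (vertical axis, %) for 20 Trbv segments on the left and 68 Trav segments on the right; bars are SD over 3 libraries and the dashed line marks equal shares. The Trbv points follow the line, led by Trbv29 and Trbv3, and the Trav points scatter around it with wide bars.

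Counts were spread over fewer beta than alpha segments, but alpha counts are divided among copies. The 5 Trbv segments with the most counts held 45.3% of Trbv counts and the 10 with the most held 72.9%, while the corresponding Trav segments held 17.0% and 28.9% of Trav counts. Per length the order of the top 3 beta segments was Trbv29, Trbv3 and Trbv13-1, with mean TPM of 87.6, 65.7 and 59.9 over the 6 libraries, and Trbv23 was last at 2.16. Evenness was expressed as the Shannon index. For Trav it was 5.78 ± 0.0189 bits with IL-3 supernatant and 5.76 ± 0.0256 bits with PBS supernatant (SD, n = 3 each; exact permutation p = 0.5). For Trbv it was 4.03 ± 0.0177 bits with IL-3 supernatant and 4.04 ± 0.00982 bits with PBS supernatant (exact permutation p = 0.3). These indices correspond to 53.1 to 55.6 equally used Trav segments and 16.1 to 16.6 equally used Trbv segments per library. On sums of the 17 subgroups of each family, where copies are joined, the order of the families turned: the indices correspond to 11.06 to 11.65 equally used Trav subgroups and 12.15 to 12.55 equally used Trbv subgroups per library.

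How far libraries of different groups lay apart depended on the family and on whether copies were joined. Bray-Curtis distance, 0 for equal shares and 1 for no overlap, lay between 0.0594 and 0.0982 for Trbv between groups and between 0.0375 and 0.0899 within groups (exact permutation p = 0.2). For Trav it lay between 0.173 and 0.220 between groups and between 0.172 and 0.205 within groups (exact permutation p = 0.2). On Trav subgroup sums the mean distance was 0.101 between groups and 0.0837 within groups, with the smallest p that 3 against 3 libraries can give (exact permutation p = 0.1). On Trbv subgroup sums it was 0.0672 between groups and 0.0675 within groups (exact permutation p = 0.7). The chi-square of Trbv segment counts was 3.40 times its degrees of freedom within the IL-3 group, 2.43 times within the PBS group and 2.47 times for the IL-3 sum against the PBS sum. For Trav segments these ratios were 2.27, 3.09 and 3.14, and for Trav subgroups 1.75, 2.59 and 4.11, so libraries of 1 group already differed by more than counting error alone gives. The plain, d and n sets of alpha segments held 49.6 ± 2.43%, 25.0 ± 2.02% and 25.4 ± 2.23% of Trav counts with IL-3 supernatant and 49.0 ± 3.55%, 24.9 ± 2.30% and 26.1 ± 3.26% with PBS supernatant. As to position along the locus, across the 52 tested Trav segments Spearman's rho between start and log2 change was -0.09, and across the 19 tested Trbv segments 0.05.

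Trav12n-3 and Trav12d-3 show how copies trade counts. Their coding sequences of 347 bases are identical, and they lie far apart on chromosome 14. Trav12d-3 held 26.1, 0.01 and 30.9 counts in the IL-3 libraries and 0.17, 33.2 and 1.87 counts in the PBS libraries. Trav12n-3 held 3.95, 26.0 and 4.15 counts in the IL-3 libraries and 36.8, 5.31 and 29.5 counts in the PBS libraries. Wherever 1 copy was high the other was low, in both groups. The pair together held 30, 26 and 35 counts in the IL-3 libraries and 37, 38.5 and 31.4 counts in the PBS libraries. These counts are not scaled for library size, and they overlap only in the third IL-3 and the third PBS library. Those 2 libraries held 19283416 and 17377052 expected counts in all. In CPM, Trav12n-3 had 0.212 and Trav12d-3 had 1.575 in the third IL-3 library, against 1.684 and 0.107 in the third PBS library. The pair together thus lay at nearly the same level in these 2 libraries. With Trav12-3 added, the sums were 43, 47 and 45 counts in the IL-3 libraries and 58.6, 60.8 and 56.7 counts in the PBS libraries, which do not overlap.

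**Figure D5:**
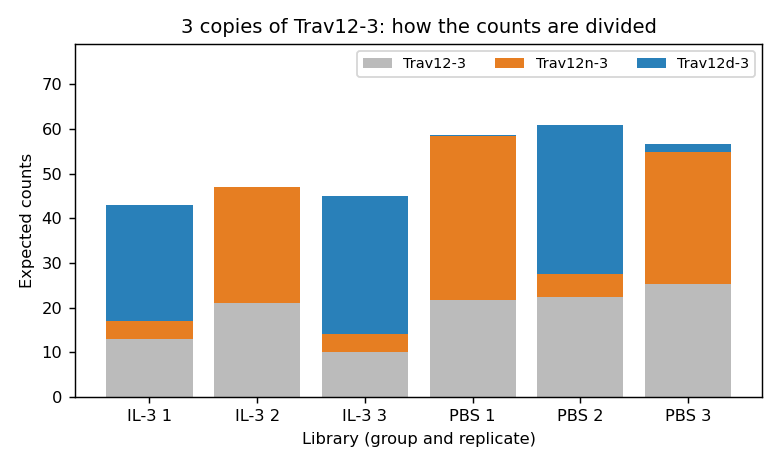
Expected counts (vertical axis) of Trav12-3, Trav12n-3 and Trav12d-3, stacked, in each of 3 IL-3 and 3 PBS supernatant libraries (horizontal axis). The parts of Trav12n-3 and Trav12d-3 exchange places between libraries of the same group, while the stacked heights stay between 43 and 47 counts in the IL-3 libraries and between 56.7 and 60.8 counts in the PBS libraries.

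Around the limit of 30 counts, Trav5-1 with 37 counts and Trav15d-1-dv6d-1 with 38 were just inside, and Trav13-4-dv7 with 29 was just outside. Trav9d-4, also outside, had 28.3 counts, all but a trace in IL-3 replicate 1. For Trbv the nearest inside were Trbv23 with 44 counts and Trbv20 with 131, and the nearest outside Trbv24 with 21 and Trbv30 with 19.

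The other genes of the receptor were mostly lower too. Of 7 constant and CD3 genes, 5 fell, 1 rose and Trbc1 did not pass, beside 16.1% of genes called lower and 14.8% called higher. Cd3e, Cd3g and Cd3d, signalling chains that assemble with the receptor, fell by 0.75, 0.57 and 0.35 on the log2 scale. Cd247, which encodes the zeta chain, rose to 132.3 ± 10.6 CPM with IL-3 supernatant, against 107.2 ± 1.55 CPM with PBS supernatant (log2 change 0.30, edgeR adjusted p = 0.00144). Of 15 regulators that bind the alpha and beta enhancers, 9 fell and 4 rose. Gata3, a zinc finger factor of T cells, rose to 105.9 ± 7.50 CPM with IL-3 supernatant, against 12.7 ± 1.505 CPM with PBS supernatant. Myb fell by 1.26, Tcf7 by 0.56 and Ikzf1 by 0.45 on the log2 scale. Of 12 recombination and end-joining genes, 9 were tested, 1 rose (Lig4) and 1 fell (Xrcc5), and the recombinase genes Rag1 and Rag2 had at most 0.111 CPM in any library. Of 17 genes of nonsense-mediated decay, the pathway that removes transcripts of out-of-frame joins, 1 rose (Etf1) and 3 fell (Smg6, Upf1 and Upf3a). Of 22 genes of proximal receptor signalling, 11 fell and 4 rose.

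Markers of the cell types were read beside these results, and their part in them was not tested. The CD8 T cell list of 7 genes summed to 9680 to 10120 CPM with IL-3 supernatant and 6535 to 6675 CPM with PBS supernatant. In this list 5 genes fell and 1 rose, beside 16.1% of all genes called lower and 14.8% called higher. It shares Cd3e, Trac, Trbc1 and Trbc2 with the constant and CD3 genes above, so the 2 counts are not separate. Most of the sum was Gzmb, which encodes the cytotoxic protease granzyme B and rose to 8689 ± 226 CPM with IL-3 supernatant, against 4525 ± 111 CPM with PBS supernatant (log2 change 0.94, edgeR adjusted p = 2.255e-10). The co-receptor genes fell, Cd8a to 377.4 ± 15.5 CPM with IL-3 supernatant against 849.5 ± 41.1 CPM with PBS supernatant, and Cd8b1 to 216.2 ± 14.5 CPM with IL-3 supernatant against 289.8 ± 10.2 CPM with PBS supernatant. Cd4 averaged 0.301 CPM with IL-3 supernatant and 0.692 CPM with PBS supernatant. The CD4 T cell list of 4 genes summed to 18.1 to 20.03 CPM with IL-3 supernatant and 14.2 to 16.0 CPM with PBS supernatant. Within it Foxp3 averaged 0.170 ± 0.106 CPM with IL-3 supernatant and 7.34 ± 2.36 CPM with PBS supernatant, and Zbtb7b 18.0 ± 1.29 CPM with IL-3 supernatant and 6.36 ± 1.73 CPM with PBS supernatant. The B cell list of 7 genes summed to 109.8 to 132 CPM with IL-3 supernatant and 292.2 to 324 CPM with PBS supernatant, nearly all of it Ighm, while Cd79b averaged 2.56 CPM with IL-3 supernatant and 2.67 CPM with PBS supernatant and did not pass, and Cd79a and Ms4a1 averaged at most 0.187 CPM in either group. Of the gamma delta list of 7 genes 4 were matched, and they summed to 0.856 to 1.28 CPM with IL-3 supernatant and 1.22 to 1.71 CPM with PBS supernatant. Trgv2, a gamma variable segment, had 0, 0.0901 and 0 CPM in the IL-3 libraries, against 0.390, 0.499 and 0.627 CPM in the PBS libraries, and Sox13 averaged 0.181 CPM with IL-3 supernatant and 0.0186 CPM with PBS supernatant; neither reached the filter. Trdc, the constant region of the delta chain, averaged 0.894 CPM with IL-3 supernatant and 0.916 CPM with PBS supernatant and did not pass, and some alpha segments named with dv can also join the delta chain. The natural killer list of 6 genes summed to at most 0.257 CPM, and in the basophil and mast cell list 4 of 7 genes were at 0 in every library, Mcpt8 and Fcer1a among them.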

How the data were processed

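Poly(A) RNA of 6 libraries was sequenced with Illumina TruSeq chemistry, per the labels' protocols. RSEM 1.2.12, Bowtie2 2.2.0, edgeR 3.20.9 and GRCm38 are named per the submitters' processing notes; no source used here gives the annotation or strand setting. The authors deposited expected counts per gene, which divide reads among matching genes, and TPM, per isoform for PBS replicate 2 and summed here per gene. Library totals ran between 17377052 and 22174902 expected counts.

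Expected counts were rounded and fitted with edgeR 4.0.16 in R 4.3.3 (filterByExpr, TMM, robust quasi-likelihood, Benjamini-Hochberg over all genes). Log2 changes are IL-3 over PBS supernatant. The share test replaced the library offset of Trav and Trbv rows by their family total. Ratios and Shannon indices had two-sided exact permutation tests. For Bray-Curtis distances the exact permutation test was one-sided, for larger distances between than within groups. Both fits were also run on simulated counts with the same relative spread for all genes. No alpha share was changed there, so that run does not check the share fit for alpha segments. Coding sequences were aligned with Biopython (match 1, mismatch -1, gap -4 and -1). Limma 3.58.1 and DESeq2 1.42.0 served as alternatives.

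Members and gene lists were chosen with earlier results of these data known. Named segments are the 10 of each family with most counts, called ones, those beside the limit, Trav1, Trav11, Trbv1, Trbv31 and the constant and CD3 genes; up to 4 genes of each other list with the smallest p are named. Trav12n-3, Trav12d-3, Trav4-4-dv10 segments called by an alternative, and the untested list genes Rag1, Rag2, Cd4, Cd79a, Ms4a1, Trgv2, Sox13, Mcpt8 and Fcer1a were chosen after their values were seen.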

Additional observations from a re-analysis of the deposited data

How the results depend on the processing

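The falls of both family sums kept their direction and passed under every alternative run, with log2 changes between -0.55 and -0.46 for Trav and between -0.49 and -0.44 for Trbv (largest adjusted p = 0.00305). No segment or subgroup was called higher in level by any of them. The number of segments called lower, 18, became 9 with DESeq2 and 11 with the replicate number as a block. It became 23 with limma on log2(TPM + 1) and 21 with limma on log2(TPM + 0.1), both run without PBS replicate 2. In edgeR fits with 1 library left out it lay between 4 and 13. Subgroups called lower, 16, lay between 7 and 13 with 1 library left out, fits that hold fewer samples. Segment shares called, 0, became 7 with limma on log2 shares and 1 on subgroup sums (added after seeing the data), and lay between 0 and 1 with 1 library left out. The Shannon index difference on subgroup sums was -0.0101 bits for Trav and 0.0134 bits for Trbv; the cause of these shifts was not tested. To look for pairing, the mean log CPM of its group was taken off each gene. What was left correlated between same-numbered libraries at -0.148, 0.0517 and 0.255 over genes. IL-3 replicate 1 with PBS replicate 2 gave 0.256, about the same as the third same-numbered pair. With 1 same-numbered pair negative and 1 near 0, the numbers were not taken to pair libraries. Under the replicate block 0 shares and 15 subgroups were called. Of the alpha segments, 16 of 68 were too low to test.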
